A study of Mus musculus with 6 samples.

Results

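Transcripts of 7 enzymes of cholesterol synthesis, Hmgcs1, Idi1, Fdps, Sqle, Lss, Cyp51 and Msmo1, were compared between mouse hepatocytes that carried a miR-206 transgene and hepatocytes that did not. The 7 genes were taken by name from the deposited count table, in which they are 7 of 49315 genes, and all 7 had enough counts to be tested. They were listed as genes of cholesterol synthesis and LDL uptake, but each of them encodes a synthesis enzyme and none takes part in uptake of LDL. Genes of LDL uptake are therefore described from a separate list further on.

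The miR-206 group was GFP-positive hepatocytes and the control group GFP-negative hepatocytes, with 3 libraries each, sorted by flow cytometry after liver perfusion. According to the design text, both sorted fractions derive from 3 male C57BL/6J mice, 8 weeks old at injection, which had received 20 µg of the plasmid pT3-TTR-miR-206-IRES-GFP and 0.8 µg of a Sleeping Beauty transposase plasmid by hydrodynamic injection 4 weeks earlier. The Ttr promoter of that plasmid is active in hepatocytes and drives miR-206 and GFP together. The labels describe the controls as wild-type cells given an empty vector, which differs from the design text, and the counts do not show which holds. With either source, cells of both groups had been through injection, perfusion and sorting. No label says which libraries came from the same mouse, so the p-values treat the 6 libraries as independent and measure the spread between these libraries.

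Hepatocytes make cholesterol from acetyl-CoA. HMG-CoA synthase, encoded by Hmgcs1, starts the committed branch, Idi1 and Fdps build isoprenoid units into farnesyl diphosphate, and Sqle and Lss turn squalene into lanosterol, the first sterol. Cyp51 and Msmo1 then remove methyl groups from lanosterol and its products. Transcription of these genes is driven by SREBP2, a membrane-bound factor that is released when sterols in the endoplasmic reticulum run low, together with the CCAAT-binding factor NF-Y, so that they are known to rise and fall together. A microRNA acts through its seed, the bases that pair with sites in 3′ UTRs of messenger RNAs.

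The mature microRNA and the only seed match of 7 bases or more found among the 7 genes are shown first, because a microRNA pairs with its targets through such matches. Capitals mark the seed (bases 2 to 8) in the microRNA and the bases complementary to it in the site. The microRNA is from RefSeq (GRCm38.p6, chr1:20679055-20679076, plus strand) and the site from the GENCODE 3′ UTR of Lss (GRCm38, chr10:76554814-76554840, plus strand).
mmu-miR-206-3p: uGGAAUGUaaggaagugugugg
Lss 3′ UTR site: agatcactgtACATTCCcttaacaaac
The Lss site is a 7mer-m8 match at base 1756 of a 3′ UTR of 2411 bases. No match of 7 bases or more was found in the longest annotated 3′ UTR of Hmgcs1, Idi1, Fdps, Sqle, Cyp51 or Msmo1. Among the 16865 tested genes with an annotated 3′ UTR, 19.6% held a match of 7 bases or more, and 11.7% an 8mer or 7mer-m8 match. A match is a description of the sequence and does not show binding.

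Upstream sequences are shown for Hmgcs1 and Msmo1, the 2 of the 7 genes with the largest rises after background correction, and for Lss, which was lower in miR-206 under both treatments of the counts. Each run is the 250 bases before the RefSeq start (GRCm38.p6), at chr13:119690101-119690350 on the plus strand for Hmgcs1, chr8:64733579-64733828 on the minus strand for Msmo1 and chr10:76531355-76531604 on the plus strand for Lss. Capitals mark a pattern of the sterol element, TCACNCCAC, and the NF-Y box CCAAT. Both were searched on both strands, where ATTGG is the box on the opposite strand.
Hmgcs1: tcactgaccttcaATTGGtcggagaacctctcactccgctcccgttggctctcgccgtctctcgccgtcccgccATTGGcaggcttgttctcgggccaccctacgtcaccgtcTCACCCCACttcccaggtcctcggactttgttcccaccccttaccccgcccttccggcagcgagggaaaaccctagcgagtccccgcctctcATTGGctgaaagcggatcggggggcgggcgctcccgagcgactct
Msmo1: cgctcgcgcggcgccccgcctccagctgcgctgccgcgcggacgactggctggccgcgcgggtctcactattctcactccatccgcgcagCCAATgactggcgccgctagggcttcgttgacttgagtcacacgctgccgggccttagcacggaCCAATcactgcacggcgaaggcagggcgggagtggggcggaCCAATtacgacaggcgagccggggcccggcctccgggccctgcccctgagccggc
Lss: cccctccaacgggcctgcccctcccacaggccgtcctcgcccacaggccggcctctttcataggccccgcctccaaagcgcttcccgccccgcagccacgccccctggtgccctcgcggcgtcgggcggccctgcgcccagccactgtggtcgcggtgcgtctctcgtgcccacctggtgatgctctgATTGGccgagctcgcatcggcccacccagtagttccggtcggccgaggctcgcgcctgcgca
The pattern TCACNCCAC lay 137 bases before the Hmgcs1 start and was in none of the promoters of Idi1, Lss, Cyp51 and Msmo1. Promoters were searched from 250 bases before to 50 bases after the start. Sterol elements with other letters were not searched for, so its absence does not show that a promoter lacks one. TCACNCCAC was present in 1.24% of 32851 mouse promoters of that length. An NF-Y box was found in all 5 member promoters, with 4 in Hmgcs1 (1 of them after the start and outside the run shown), 3 in Msmo1, 2 in Idi1 and 1 each in Lss and Cyp51. Of all promoters, 37.4% held one. Promoters of Fdps and Sqle were not searched. The 2 patterns do not overlap in these promoters.

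The libraries differed in ways that bear on every value below. The miR-206 libraries held 4157947 to 5724329 counts, against 8966590 to 15244017 in control. Mitochondrially encoded genes took 11.2%, 63.8% and 48.7% of counts in miR-206 libraries 1 to 3, against 36%, 9.16% and 10.4% in control libraries 1 to 3. Counts on 1702 olfactory and vomeronasal receptor genes, which hepatocytes are not known to express, were used as a measure of background. They came to 3.7 to 5.45 counts per exonic kb in miR-206 and 1.26 to 3.05 in control, which corresponds to 18.3% to 25.7% of nuclear counts in miR-206 and 1.24% to 6.58% in control. Control 1 stood apart within its group, with a correlation of log2 CPM of 0.854 and 0.856 with controls 2 and 3, against 0.965 between controls 2 and 3. No library had a count of Mir206, and 0 counts allow a level of up to 0.722 CPM in the smallest library. Messenger RNA libraries do not measure a mature microRNA, so expression of the transgene was not a check of the labels.

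The labelled cell type was present in both groups. Summed CPM of 20 hepatocyte markers was 22400 to 61700 in miR-206 and 82200 to 212000 in control, none of the markers was at 0 in all libraries of a group, and their median count in miR-206 was 934 times the background. Summed CPM of 10 Kupffer cell markers was 42.1 to 48.4 in miR-206 and 355 to 1570 in control, and that of 8 cholangiocyte markers 48 to 109 in miR-206 and 900 to 3160 in control. Sinusoidal endothelial markers summed to 167 to 251 CPM in miR-206 and 546 to 622 in control, stellate cell markers to 124 to 143 in miR-206 and 264 to 731 in control, and lymphocyte markers to 48.6 to 54.3 in miR-206 and 85.9 to 110 in control. Single lymphocyte markers went both ways (edgeR on the deposited counts, adjusted p under 0.05). Of the 10, 3 rose and 4 fell, beside 25.8% and 29.6% of all genes tested. These 6 lists did not overlap between groups (exact two-sided permutation test, p = 0.1 each, the smallest that 3 against 3 can give). Red cell markers overlapped, at 18 to 48.3 CPM in miR-206 and 38.6 to 159 in control (exact permutation p = 0.2). In the miR-206 libraries the median marker of the 6 lists of other cell types stood at only 2.38 to 6.31 times background. In bulk libraries fewer cells of a type and less RNA per cell cannot be told apart, and the part of these differences in the results on the 7 genes was not tested.

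On the counts as deposited, 5 of the 7 transcripts fell in miR-206 hepatocytes and none rose. Fdps and Lss fell most, Idi1, Sqle and Cyp51 fell by a smaller factor, and Hmgcs1 and Msmo1 did not pass the test. Libraries were scaled by TMM, levels are TMM-scaled CPM unless stated, and a gene is said to rise or fall at a Benjamini-Hochberg adjusted p under 0.05 in edgeR's quasi-likelihood test over 24382 genes. Of all genes tested 29.6% fell and 25.8% rose, so that a fall was common in this comparison. The median log2 fold change of miR-206 over control was -1.0 over the 7 genes and 0.45 over all tested genes.

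**Figure D1:**
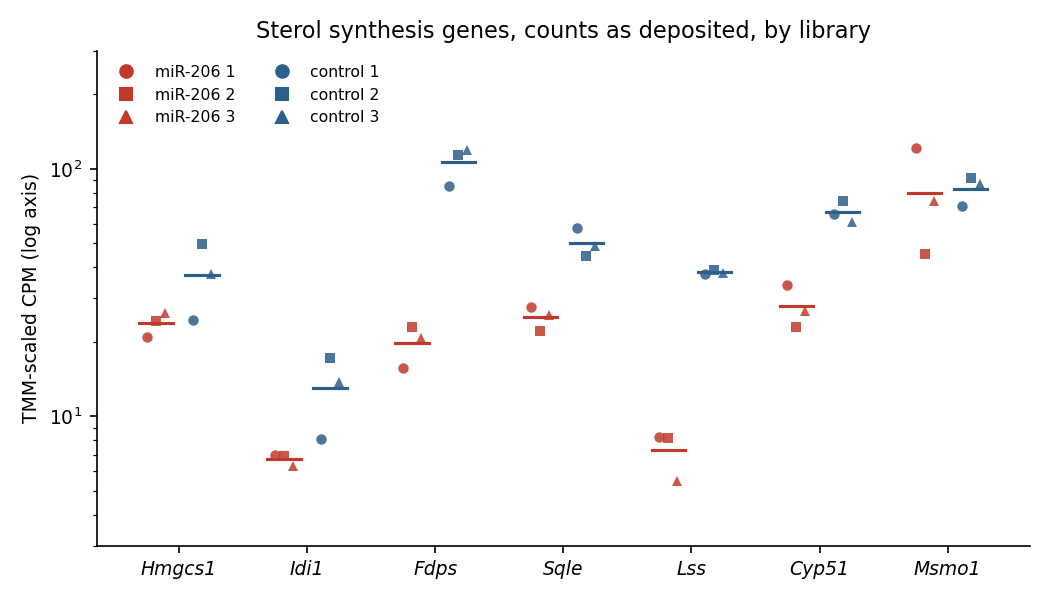
TMM-scaled CPM (log axis) of the 7 genes in each of the 3 miR-206 libraries (red) and 3 control libraries (blue), with bars at the group means. Fdps, Lss, Cyp51, Sqle and Idi1 do not overlap between groups, and Msmo1 overlaps widely.

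Hmgcs1 encodes the cytosolic synthase that joins acetyl-CoA and acetoacetyl-CoA (ENSMUSG00000093930, GRCm38, chr13:119690379-119708260, plus strand). It had 166, 134 and 200 counts in miR-206 libraries 1 to 3, against 185, 477 and 332 in control libraries 1 to 3. Scaled, this was 21.0, 24.4 and 26.2 CPM in miR-206, against 24.4, 49.5 and 37.6 CPM in control. Control 1 lay among the miR-206 libraries and the groups overlapped. The mean was 23.9 ± 2.63 CPM in miR-206 and 37.2 ± 12.5 CPM in control (SD, n = 3 each), and the log2 fold change of -0.64 ± 0.35 (SE) did not pass the edgeR test (adjusted p = 0.133). Without control 1 it passed, at -0.95 (edgeR, adjusted p = 0.000457).

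Idi1 encodes isopentenyl diphosphate isomerase, which interconverts the 2 building blocks of isoprenoids (ENSMUSG00000058258, chr13:8885501-8892451, plus strand). Its counts were the lowest of the 7 genes in 2 of the 3 miR-206 libraries and in every control, at 55, 38 and 48 in miR-206 libraries 1 to 3, against 61, 166 and 122 in control libraries 1 to 3. In CPM the miR-206 libraries had 6.96, 6.91 and 6.28 and the controls 8.06, 17.2 and 13.8. Control 1 was again the lowest control, just above the miR-206 libraries, and the groups did not overlap. Idi1 fell by 0.96 ± 0.36 on the log2 scale (edgeR, adjusted p = 0.0416), a call that was kept without control 1 and lost without any of the other 5 libraries. Its paralog Idi2 had 16, 3 and 14 counts in miR-206, against 0, 0 and 3 in control. Reads shared between them were not measured.

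Fdps encodes farnesyl diphosphate synthase, at the branch point to sterols and protein prenyl groups (ENSMUSG00000059743, chr3:89093588-89101959, minus strand). It had 124, 126 and 158 counts in miR-206 libraries 1 to 3, against 643, 1100 and 1056 in control libraries 1 to 3. All 3 miR-206 libraries were far below every control. At 19.8 ± 3.70 CPM in miR-206 and 106 ± 18.6 CPM in control (SD, n = 3 each), Fdps fell by 2.43 ± 0.38 on the log2 scale (edgeR, adjusted p = 0.000731), and the call was kept without each of the 6 libraries.

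Sqle encodes squalene epoxidase, the first oxygen-requiring step and a rate-limiting enzyme of the late pathway (ENSMUSG00000022351, chr15:59315077-59331192, plus strand). Counts were 218, 121 and 196 in miR-206 libraries 1 to 3, against 438, 427 and 431 in control libraries 1 to 3. The 3 controls had nearly equal counts although their totals differed, so that after scaling control 1 was the highest. Scaled levels were 25.1 ± 2.83 CPM in miR-206 and 50.3 ± 6.90 CPM in control (SD, n = 3 each), with no overlap. Sqle fell by 1.00 ± 0.32 on the log2 scale (edgeR, adjusted p = 0.0227), and the call was lost without miR-206 library 2 (0.0874) or control 3 (0.0566).

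Lss encodes lanosterol synthase, which closes the sterol rings (ENSMUSG00000033105, chr10:76531588-76557138, plus strand). It had 65, 45 and 42 counts in miR-206 libraries 1 to 3, against 284, 377 and 334 in control libraries 1 to 3. In CPM this was 8.22, 8.19 and 5.50 in miR-206, against 37.5, 39.1 and 37.8 in control. The controls lay within a narrow band and the miR-206 libraries well below it. Lss fell by 2.39 ± 0.32 on the log2 scale (edgeR, adjusted p = 0.000371), and the call was kept without each of the 6 libraries.

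Cyp51 encodes lanosterol demethylase, a cytochrome P450 enzyme of the sterol pathway (ENSMUSG00000001467, chr5:4081145-4104746, minus strand). Its counts were 269, 126 and 204 in miR-206 libraries 1 to 3, against 496, 715 and 537 in control libraries 1 to 3. Scaled means were 27.9 ± 5.65 CPM in miR-206 and 66.9 ± 6.78 CPM in control (SD, n = 3 each), and the groups did not overlap. Cyp51 fell by 1.26 ± 0.34 on the log2 scale (edgeR, adjusted p = 0.0114), and the call was lost without miR-206 library 2 (0.0605). Akap9, on the opposite strand, overlaps Cyp51 and had 131, 106 and 176 counts in miR-206, against 162, 535 and 481 in control. The use of strand in counting is not given in the sources used here. Reads in the overlap therefore cannot be assigned with certainty.

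Msmo1 encodes the sterol C4-methyl oxidase (ENSMUSG00000031604, chr8:64718139-64733792, minus strand). It had 956, 250 and 567 counts in miR-206 libraries 1 to 3, against 534, 884 and 765 in control libraries 1 to 3, although the miR-206 libraries were smaller. CPM were 120.9, 45.5 and 74.2 in miR-206, against 70.6, 91.7 and 86.7 in control. One miR-206 library was above and another below all controls. The means were 80.2 ± 38.1 CPM in miR-206 and 83.0 ± 11.1 CPM in control (SD, n = 3 each), and the log2 fold change of -0.05 ± 0.44 did not pass the edgeR test (adjusted p = 0.927).

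Groups without overlap of TMM-scaled CPM, lower in miR-206, were seen for the 5 genes that fell, against 30.3% of all genes tested. The calls depended on single libraries: 2 of the 7 genes fell without miR-206 library 2, against 22.3% of all genes, and 3 without control 3, against 24.4%. Without control 1, 6 fell, Hmgcs1 among them, against 34.7% of all genes. They also depended on the scaling. With upper-quartile factors 2 of the 7 genes fell and none rose, against 19.7% and 43.6% of all genes, and on library size alone 2 fell and none rose, against 15.5% and 47.7%. In both cases the 2 genes were Fdps and Lss.

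Per exonic kb, which allows levels of different genes to be compared, the order of the 7 transcripts differed between groups. In miR-206 the mean level was highest for Msmo1, at 13.1 ± 6.20 CPM per kb, followed by Cyp51 at 6.32 ± 1.28, Hmgcs1 at 5.19 ± 0.573, Fdps at 4.70 ± 0.880, Sqle at 4.52 ± 0.510, Idi1 at 1.92 ± 0.107 and Lss at 0.677 ± 0.145 (SD, n = 3). In control Fdps led at 25.2 ± 4.43 CPM per kb, followed by Cyp51 at 15.1 ± 1.54, Msmo1 at 13.5 ± 1.80, Sqle at 9.08 ± 1.24, Hmgcs1 at 8.09 ± 2.73, Idi1 at 3.72 ± 1.32 and Lss at 3.54 ± 0.0787 (SD, n = 3). Msmo1 ranked first in all 3 miR-206 libraries, and Fdps ranked first in all 3 controls. The neighbours Cyp51, Hmgcs1, Fdps and Sqle in miR-206, and the pairs Cyp51 with Msmo1, Sqle with Hmgcs1 and Idi1 with Lss in control, lay within their spread.

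The background took a larger part of these counts in the miR-206 libraries. Receptor-gene counts per kb times each gene's exonic length gave 11.5%, 17.3% and 14.9% of the summed counts of the 7 genes in miR-206 libraries 1 to 3, against 4.53%, 1.36% and 1.38% in control libraries 1 to 3. For Lss the counts of the miR-206 libraries were 1.11, 1.13 and 0.723 times the expected background, against 8.63, 24.4 and 24.6 times in the controls. Lss was thus at the background in all 3 miR-206 libraries and above it in every control. That estimate rests on an exonic length of 10.79 kb, the longest of the 7 genes. Idi1 was 2.54 to 2.93 times the background in miR-206 and 5.71 to 33.0 times in control. The other 5 genes were between 5.41 and 28.6 times the background in miR-206 and between 13.2 and 199 times in control.

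**Figure D2:**
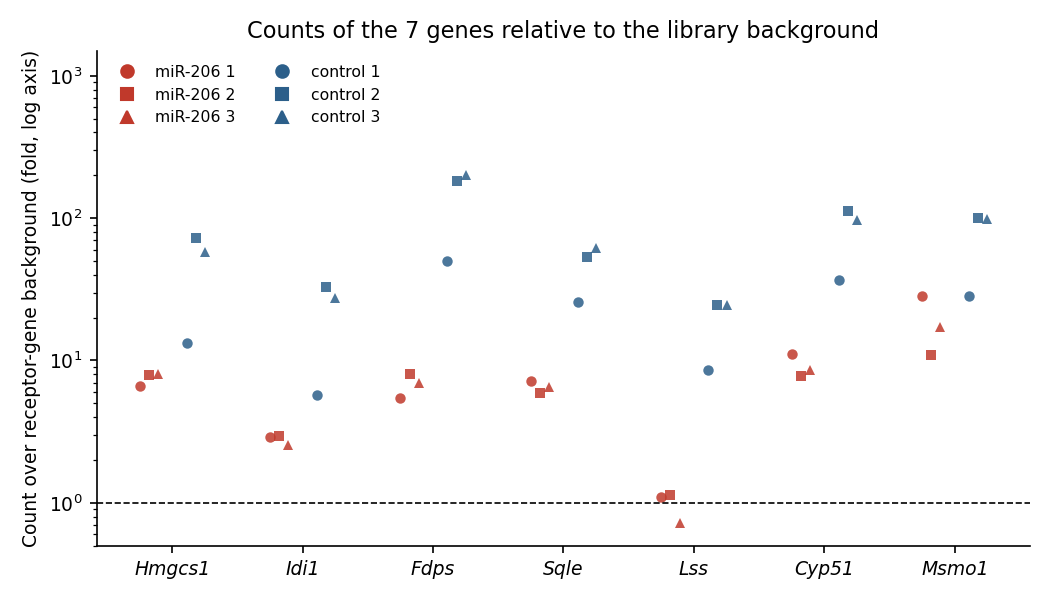
Counts of each of the 7 genes divided by the background expected from receptor genes (fold, log axis), with the dashed line at 1, in the miR-206 libraries (red) and control libraries (blue). Lss lies at the line in all 3 miR-206 libraries, and Idi1 at 2.54 to 2.93 times.

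In a fit on background-corrected counts the direction was the opposite for most of the genes. This fit changed 3 steps together, and the call of 3 of the 5 higher genes below depended on the minimum. It subtracted the background, kept the 6526 protein-coding genes of the nucleus with counts of at least 10 times the background on average, and repeated TMM and the edgeR test. Of the 7 genes 5 were called higher, against 18.4% of the genes in that fit. Lss was lower, where 20.5% of genes fell, but for a reason given below no test of Lss is given. The median log2 fold change was 1.26 over the 7 genes and -0.24 over all genes in the fit. All 7 genes passed the minimum, but only Msmo1 was over 10 times the background in every library, and the others passed through the control libraries, where the background was low. Lss averaged 10.09 and Idi1 12.45 times the background, close to the limit of 10.

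Hmgcs1 and Msmo1 rose most firmly. Background-corrected Hmgcs1 was 88.4, 115.1 and 121.1 CPM in miR-206 libraries 1 to 3, against 30.7, 30.7 and 23.7 CPM in control libraries 1 to 3. Every miR-206 library was above every control, and the log2 fold change was 1.93 ± 0.25 (edgeR, adjusted p = 0.00246). Msmo1 had 578.6, 223.4 and 369.6 corrected CPM in miR-206, against 92.6, 57.1 and 55.1 in control. It too did not overlap between groups, with a log2 fold change of 2.52 ± 0.42 (edgeR, adjusted p = 0.00458). Both calls were kept without each of the 6 libraries and under 5 ways of scaling the corrected counts.

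Idi1, Sqle and Cyp51 also rose in this fit, by 1.26 ± 0.42, 1.32 ± 0.40 and 1.18 ± 0.35 on the log2 scale (edgeR, adjusted p = 0.0452 for Idi1, 0.0337 for Sqle and 0.0292 for Cyp51). Their calls were weaker. Idi1 passed in none of the 4 fits without 1 library that kept it, Sqle in 1 of 6 and Cyp51 in 2 of 6, while the direction remained upward in each. The minimum also decided these calls. At 5 times the background, 2 of the 7 genes rose and 1 fell, against 19.5% and 27.2% of genes, and with the filterByExpr minimum alone 2 rose and 2 fell, against 24.1% and 29.5%. In both of these fits the genes that rose were Hmgcs1 and Msmo1. In corrected CPM none of the 3 genes overlapped between groups: Sqle had 98.4 to 117.9 in miR-206 and 27.3 to 75.7 in control, and Cyp51 108.2 to 153.6 in miR-206 and 38.6 to 86.8 in control. Idi1 had 20.1 to 24.6 corrected CPM in miR-206 and 8.59 to 10.5 in control. With Hmgcs1 and Msmo1, 5 of the 7 genes were higher without overlap, against 24.9% of the genes in the fit.

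Fdps and Lss did not share the rise. Fdps had 63.3, 108.2 and 93.4 corrected CPM in miR-206, against 113.2, 71.3 and 76.5 in control, so that the groups overlapped, with one miR-206 library below and one control above all libraries of the other group. Its log2 fold change was 0.02 ± 0.30 (edgeR, adjusted p = 0.963). Lss kept 6, 5 and 0 counts after subtraction in miR-206, against 251, 362 and 320 in control, without overlap, where 32.2% of genes in the fit were lower without overlap. Its fitted log2 fold change was -3.45 ± 0.82. Lss was admitted to this fit through the controls, where it is high, so that this value is a description and no test of it is given, and with so few counts left its size depends on the subtraction and is not a bound.

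Scaling the deposited counts on the 20 hepatocyte markers, whose levels fell more than those of most genes, also moved the 7 genes upward. Under it 3 of them rose and none fell, while 60.5% of all tested genes rose, 1.99% fell and the median log2 fold change was 2.69. Hmgcs1 was at 1.98 (edgeR, adjusted p = 0.00605), Idi1 at 1.68 (0.0272) and Msmo1 at 2.32 (0.00379) on the log2 scale. Relative to that median all 7 genes lay lower. Sqle at 1.26, Cyp51 at 1.09, Fdps at 0.12 and Lss at 0.02 did not pass. Per 10000 counts of hepatocyte markers, the 7 genes together had 38.0, 68.2 and 46.7 counts in miR-206 libraries 1 to 3, against 42.5, 20.3 and 19.4 in control libraries 1 to 3. Control 1 lay among the miR-206 libraries. As CPM of nuclear counts, without mitochondrial genes and without subtraction of background, their sum was 502.1, 470.3 and 481.5 in miR-206, against 460, 299.4 and 283.6 in control, so that the miR-206 libraries were higher than each control, with control 1 closest.

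**Figure D3:**
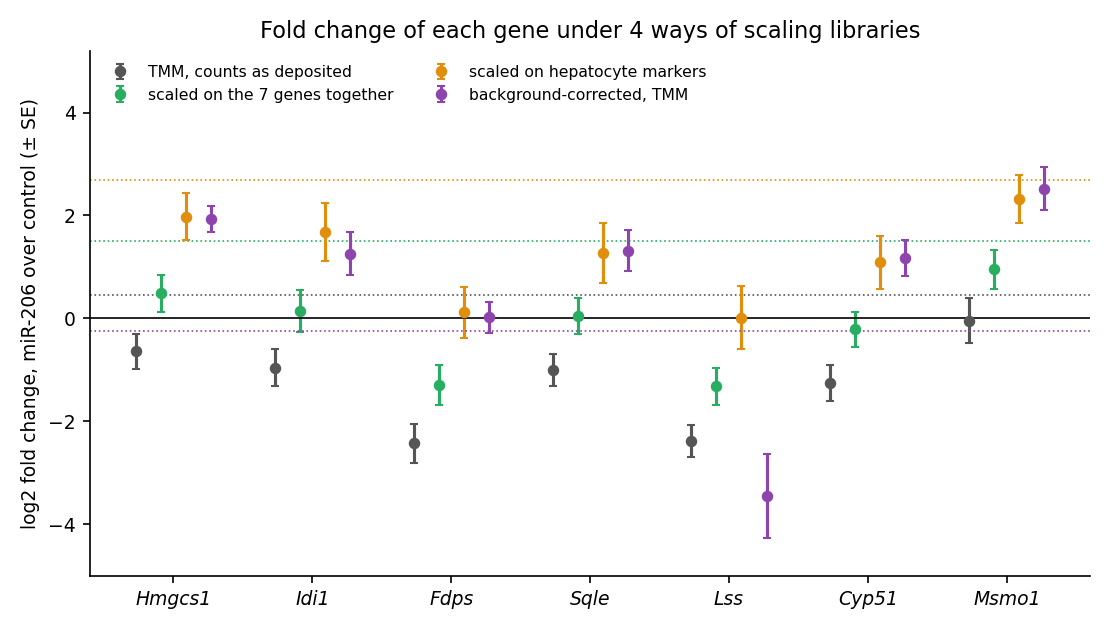
Log2 fold change of miR-206 over control for each of the 7 genes, with bars of ± SE, under TMM on the counts as deposited (grey), scaling on the summed counts of the 7 genes (green), scaling on hepatocyte markers (orange) and TMM after background correction (purple). Dotted lines mark the median of all genes tested in each fit. The level shifts between fits, and Fdps and Lss lie below the other 5 genes within each.

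What did not depend on how the libraries were scaled was the make-up of the pathway's RNA, given as each gene's share of the summed counts of the 7 genes. That sum was 1853, 840 and 1415 counts in miR-206 libraries 1 to 3, against 2641, 4146 and 3577 in control libraries 1 to 3. Msmo1 made up 51.6%, 29.8% and 40.1% of it in miR-206, against 20.2%, 21.3% and 21.4% in control. All 3 miR-206 libraries lay above the controls, and they differed widely among themselves. The mean difference was 19.5 percentage points (40.5% ± 10.9 in miR-206 and 21.0% ± 0.656 in control, SD, n = 3 each, exact permutation p = 0.1, adjusted over 7 genes 0.175).

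Fdps and Lss took smaller shares. The share of Fdps was 6.69%, 15% and 11.2% in miR-206 libraries, against 24.3%, 26.5% and 29.5% in control libraries. It averaged 11.0% ± 4.16 in miR-206 and 26.8% ± 2.60 in control (SD, n = 3 each). Lss made up 3.51%, 5.36% and 2.97% in miR-206, against 10.8%, 9.09% and 9.34% in control, with means of 3.94% ± 1.25 in miR-206 and 9.73% ± 0.896 in control. Neither gene overlapped between groups (exact permutation p = 0.1 each, adjusted 0.175). After subtraction of the background the Lss share was 0.362% ± 0.36 in miR-206 and 9.29% ± 0.585 in control. An exact test of 3 against 3 cannot go below 0.1, so no share could pass. Cyp51 had a small difference without overlap, at 14.6% ± 0.312 in miR-206 and 17.0% ± 1.90 in control (exact permutation p = 0.1, adjusted 0.175), and after subtraction of the background its shares overlapped (exact permutation p = 0.2). The shares of Hmgcs1, Idi1 and Sqle overlapped, with differences of 3.75, 0.39 and 0.36 percentage points (exact permutation p = 0.3, 0.6 and 1).

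**Figure D4:**
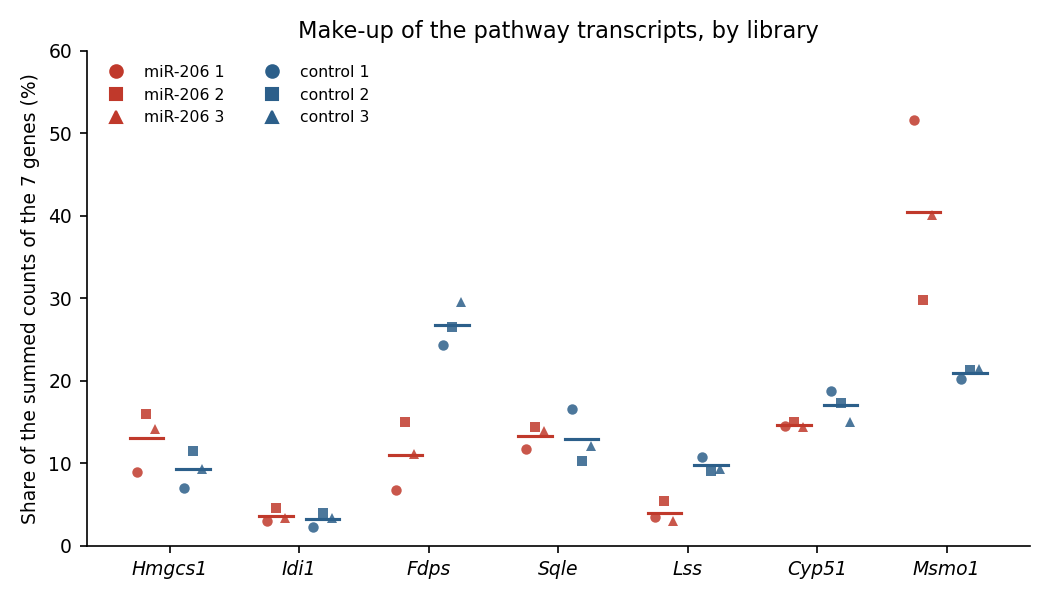
Share (%) of each gene in the summed counts of the 7 genes, for each miR-206 library (red) and control library (blue), with bars at the group means. Msmo1 takes 29.8% to 51.6% in miR-206 and 20.2% to 21.4% in control, and Fdps and Lss are lower in every miR-206 library.

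Count ratios within a library show the same shift. Msmo1 had 7.71, 1.98 and 3.59 counts per count of Fdps in miR-206 libraries 1 to 3, against 0.83, 0.804 and 0.724 in control libraries 1 to 3. Per count of Lss it had 14.7, 5.56 and 13.5 in miR-206, against 1.88, 2.35 and 2.29 in control. Lss was at 0.723 to 1.13 times the background in miR-206, so the size of this ratio depends on the background there. Hmgcs1 had 1.34, 1.06 and 1.27 counts per count of Fdps in miR-206, against 0.288, 0.434 and 0.314 in control. In the ratios of Msmo1 the controls lay close to each other, control 1 included. In Hmgcs1 over Fdps control 2 was higher than the other controls. Every miR-206 library lay above the controls in each ratio.

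An edgeR fit with libraries scaled on the summed counts of the 7 genes, chosen after the shares were seen, gives the same shift on a log2 scale and is no separate test of it. Relative to the sum, the log2 fold change was 0.95 ± 0.38 for Msmo1, -1.30 ± 0.39 for Fdps and -1.32 ± 0.36 for Lss. Without 1 library at a time it was 0.74 to 1.13 for Msmo1, -1.59 to -1.04 for Fdps and -1.58 to -1.15 for Lss. Hmgcs1 was at 0.48, Idi1 at 0.15, Sqle at 0.04 and Cyp51 at -0.22. In this scaling 49.7% of all tested genes were called higher and 16.6% lower.

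Other genes of the pathway were followed in 4 lists of 23 genes in all. On the counts as deposited 16 of them fell and none rose, and after background correction 5 rose, 1 fell and 2 were not in the fit, beside 29.6% of all genes that fell on the deposited counts and 18.4% that rose and 20.5% that fell after correction. At the minimum of 5 times the background 3 rose, 4 fell and 1 was not in the fit, beside 19.5% and 27.2% of genes. Insig2 was lower in all of these fits. The genes counted as falling after correction, Insig2 among them, were admitted through the controls, where they are high. Their falls after correction are therefore a description and not a test. In the upper pathway, 4 of 5 other mevalonate and isoprenoid genes fell on the counts as deposited, with a median log2 fold change of -1.41. Pmvk, the phosphomevalonate kinase, had 4.34 ± 1.03 CPM in miR-206 and 33.9 ± 10.7 CPM in control, a log2 fold change of -2.96 (edgeR, adjusted p = 0.000334). Acat2, which makes acetoacetyl-CoA in the cytosol, had 15.3 ± 1.24 CPM in miR-206 and 49.3 ± 10.9 CPM in control, at -1.68 (adjusted p = 0.00207). Mvk, the mevalonate kinase, was at -1.41 (adjusted p = 0.0104). After background correction 1 of the 4 genes kept in the fit rose, Acat2 at 0.82 (edgeR, adjusted p = 0.0451), a call held in 1 of the 5 scalings. Pmvk at -0.67 and Mvk at 0.59 did not pass there. At the minimum of 5, Ggps1, another gene of this list, rose by 1.78 ± 0.35 (edgeR, adjusted p = 0.00608), and Acat2 at 0.33 did not pass. Pmvk was lower there, at -1.17. It was admitted through the controls, at 2.82 to 4.61 times the background in miR-206 and 31.4 to 163 times in control. The Pmvk value is a description without a test.

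Of 8 other squalene and sterol genes 5 fell on the counts as deposited, against 29.6% of all genes, with a median of -1.96. Nsdhl, which works with Msmo1 in removing the methyl groups at carbon C4, had a log2 fold change of -2.77 (edgeR, adjusted p = 0.000316). Tm7sf2, a sterol reductase, was at -2.66 (adjusted p = 0.00183). Fdft1, the squalene synthase, had 15.9 ± 4.64 CPM in miR-206 and 53.8 ± 5.46 CPM in control (SD, n = 3 each), at -1.76 (edgeR, adjusted p = 0.00231). After background correction 2 of the 8 genes rose, against 18.4% of the genes in that fit. Lbr, whose protein is a sterol reductase of the nuclear envelope, rose by 1.57 ± 0.32 (edgeR, adjusted p = 0.00835), and Dhcr7, a sterol reductase late in the pathway, by 1.77 ± 0.48 (adjusted p = 0.0217). Lbr and Dhcr7 passed under 4 of 5 scalings of the corrected counts. Without 1 library the calls were kept in all 5 fits that kept the gene for Lbr and in 2 of 6 for Dhcr7. Nsdhl at -0.78, Tm7sf2 at -0.09 and Fdft1 at 0.59 did not pass. At the minimum of 5, Lbr still rose, and the rise of Dhcr7 was lost (edgeR, adjusted p = 0.0526). Nsdhl was lower there, at -1.28. It was admitted through the controls, at 2.19 to 3.51 times the background in miR-206 and 24.94 to 94.05 times in control. The Nsdhl value is a description without a test.

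Of 6 genes that control SREBP2, 5 fell on the counts as deposited, against 29.6% of all genes. Their median was -2.05, against 0.45 over all genes. Insig2, which holds the SREBP complex in the endoplasmic reticulum, had 11.4 ± 3.18 CPM in miR-206 and 178.4 ± 114.3 CPM in control, a log2 fold change of -3.96 (edgeR, adjusted p = 0.000925). Srebf2, the gene of SREBP2 itself, was at -2.04 (adjusted p = 0.000987), and Mbtps1, the protease that makes the first cut in it, at -2.07 (adjusted p = 0.000996). After background correction Insig2 was still lower, with a log2 fold change of -1.40 ± 0.41. It stood at 3.35 to 5.76 times the background in miR-206 and 35.1 to 515 times in control. Insig2 was thus admitted to this fit through the controls, where it is high. Its value there is a description and no test of it is given. Srebf2 had 25.4 ± 3.63 corrected CPM in miR-206 and 30.4 ± 2.61 in control, at -0.26 (adjusted p = 0.486), and Mbtps1 was at -0.58 (adjusted p = 0.184). At the minimum of 5, Mbtps1 was lower as well, at -1.08. Mbtps1 too was admitted through the controls, at 1.499 to 1.95 times the background in miR-206 and 8.339 to 40.41 times in control. The Mbtps1 value is a description without a test.

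Among 4 genes of LDL uptake and release of cholesterol in lysosomes, 2 fell on the counts as deposited, against 29.6% of all genes. Their median was -1.80. Npc2, which carries cholesterol out of the lysosome, was at -2.57 (edgeR, adjusted p = 0.0011), and Mylip, a ubiquitin ligase that removes lipoprotein receptors, at -2.31 (adjusted p = 0.00199). After background correction Lrp1, a receptor for remnant lipoproteins, rose by 1.43 ± 0.31 (edgeR, adjusted p = 0.0105), and Lipa, the lysosomal acid lipase that splits cholesteryl esters, by 1.45 ± 0.38 (adjusted p = 0.0197). Lrp1 passed under all 5 scalings and in 5 of 6 fits without 1 library, and Lipa under 4 scalings and in 2 of 6 fits. Npc2 at -0.14 and Mylip at -0.54 did not pass. At the minimum of 5, Lrp1 still rose and the rise of Lipa was lost (edgeR, adjusted p = 0.0596).

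**Figure D5:**
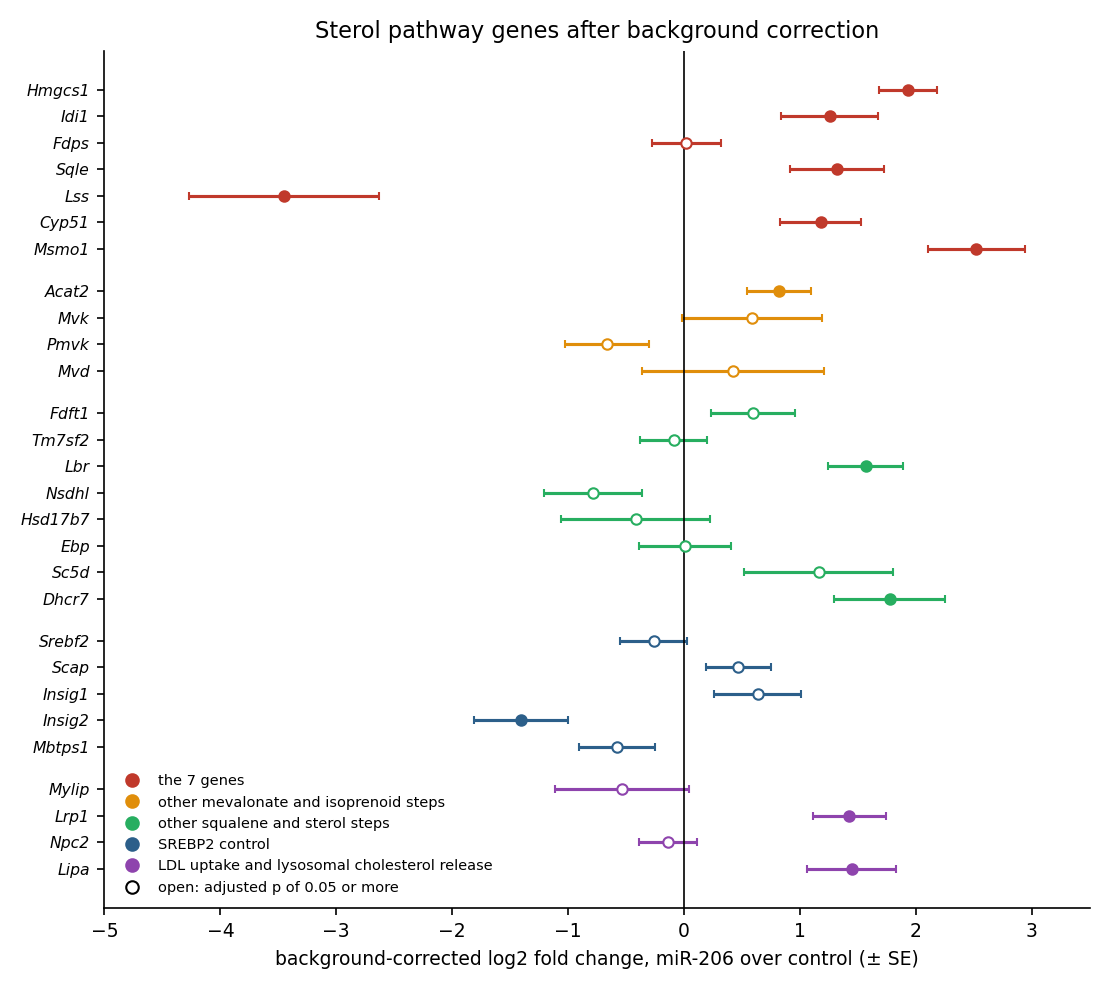
Background-corrected log2 fold change of miR-206 over control (± SE) for the 7 genes and the genes of the 4 other lists that were kept in that fit, with filled points for adjusted p under 0.05 in the edgeR quasi-likelihood test. Msmo1 and Hmgcs1 lie farthest right, and Lss and Insig2 farthest left. Lss and Insig2 entered the fit through the controls, where they are high, so that their filled points are no test.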

How the data were processed

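Libraries were made with a SMARTER mRNA-Seq kit from small amounts of total RNA, per the labels. The deposited values are whole-number counts by Ensembl gene identifier, produced by the authors and not normalised. Builds named in the submitters' processing notes are GRCm 38 and mm 10. Aligner, counter, annotation and use of strand: not given in the sources used here. Of 49315 genes, 49056 matched GENCODE M21 by identifier and 174 had no symbol.

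Genes past filterByExpr (minimum count 10) were scaled by TMM and tested with edgeR 4.0.16 (robust quasi-likelihood fit, group as the single term), with Benjamini-Hochberg adjustment over all genes tested. SE is the log2 fold change divided by the square root of F. Background was the counts per kb on 1702 receptor genes (5503 exonic kb). Rounded subtraction kept nuclear protein-coding genes whose ratios of count to background averaged at least 10 over libraries. Genes at 0 were limited to 3 counts. That limit covers counting error alone, as no molecular identifiers separate copies of a molecule.

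Shares and marker sums were compared by exact two-sided permutation tests over the 6 libraries, with shares adjusted over the 7 genes. Alternatives were RLE, upper-quartile, library-size and hepatocyte-marker scaling, TMM without mitochondrial genes, DESeq2 1.42.0, no filter on low counts, a replicate block, and leaving out each library. On simulated data with 22815 genes the edgeR fit recovered 48% of 4-fold and 96% of 16-fold changes. R 4.3.3, limma 3.58.1, data.table version 1.17.8, Python 3.11.15, pandas 2.3.3 and matplotlib 3.10.9 were used.

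The 7 genes, the gene lists and the tests were chosen with earlier results of these data known. Genes named were the 7, the 3 members of each other list with the smallest p on the deposited counts, and every member past the test after background correction. Akap9 and Idi2 were added as sources of shared reads. A few genes of the pathway are not reported here.

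Replicate numbers are shared between groups, but same-numbered libraries did not deviate together from their group means (correlations of 0.008, 0.023 and -0.006), so the numbers were not taken as pairs. No pair of libraries agreed within sampling noise.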

Additional observations from a re-analysis of the deposited data

How the results depend on the processing

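On the counts as deposited, each of the 7 genes kept its direction and its side of the threshold with RLE factors, TMM without mitochondrial genes, DESeq2 or no filter on low counts. Under the other settings the log2 fold changes of miR-206 over control moved as follows, and the cause was not tested. Each of these fits tested 24382 genes, or 6526 after background correction. The numbers given in all are the genes that rose and fell. Upper-quartile scaling gave Hmgcs1 0.25, Idi1 -0.06, Fdps -1.56, Sqle -0.19, Lss -1.55, Cyp51 -0.42 and Msmo1 0.82 (0 of the 7 rose and 2 fell, of 10629 and 4812 genes in all). Library size alone gave Hmgcs1 0.45, Idi1 0.16, Fdps -1.38, Sqle 0.07, Lss -1.31, Cyp51 -0.14 and Msmo1 1.16 (0 of the 7 rose and 2 fell, of 11642 and 3774 genes in all). Hepatocyte-marker scaling gave Hmgcs1 1.98, Idi1 1.68, Fdps 0.12, Sqle 1.26, Lss 0.02, Cyp51 1.09 and Msmo1 2.32 (3 of the 7 rose and 0 fell, of 14758 and 485 genes in all). Background correction gave Hmgcs1 1.93, Idi1 1.26, Fdps 0.02, Sqle 1.32, Lss -3.45, Cyp51 1.18 and Msmo1 2.52 (5 of the 7 rose and 1 fell, of 1198 and 1335 genes in all). Scaling on the sum of the 7 genes, chosen after seeing the data, gave Hmgcs1 0.48, Idi1 0.15, Fdps -1.3, Sqle 0.04, Lss -1.32, Cyp51 -0.22 and Msmo1 0.95 (1 of the 7 rose and 2 fell, of 12129 and 4049 genes in all). 

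The background-corrected fit was varied too, with 6526 genes tested unless stated. Fits with another minimum tested 9690 genes (5 times the background), 4227 (ratio of means) and 13756 (filterByExpr alone). Lss is counted as fallen in the background-corrected fit and in each variant that kept it. It was admitted through the controls, where it is high, so that this count is a description and no test. RLE factors gave Hmgcs1 1.84, Idi1 1.16, Fdps -0.07, Sqle 1.23, Lss -3.54, Cyp51 1.09 and Msmo1 2.43 (4 of the 7 rose and 1 fell, of 1057 and 1468 genes in all). With upper-quartile factors it gave Hmgcs1 1.86, Idi1 1.19, Fdps -0.05, Sqle 1.27, Lss -3.51, Cyp51 1.13 and Msmo1 2.48 (4 of the 7 rose and 1 fell, of 1097 and 1449 genes in all). With library size alone it gave Hmgcs1 1.45, Idi1 0.76, Fdps -0.43, Sqle 0.78, Lss -4.01, Cyp51 0.62 and Msmo1 1.89 (2 of the 7 rose and 1 fell, of 459 and 1743 genes in all). With hepatocyte markers it gave Hmgcs1 2.02, Idi1 1.36, Fdps 0.08, Sqle 1.24, Lss -3.44, Cyp51 1.13 and Msmo1 2.45 (2 of the 7 rose and 1 fell, of 806 and 770 genes in all). Chosen after seeing the data, a minimum of 5 times the background gave Hmgcs1 1.43, Idi1 0.75, Fdps -0.47, Sqle 0.84, Lss -3.94, Cyp51 0.69 and Msmo1 2.03 (2 of the 7 rose and 1 fell, of 1890 and 2640 genes in all). A minimum on the ratio of means, also chosen afterwards, left out Idi1 and Lss and gave Hmgcs1 2.21, Fdps 0.29, Sqle 1.58, Cyp51 1.45 and Msmo1 2.81 (4 of the 7 rose and 0 fell, of 815 and 663 genes in all). The filterByExpr minimum alone, also chosen afterwards, gave Hmgcs1 0.74, Idi1 0.06, Fdps -1.14, Sqle 0.2, Lss -4.58, Cyp51 0.04 and Msmo1 1.38 (2 of the 7 rose and 2 fell, of 3318 and 4055 genes in all). 

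With the replicate number as a block, the deposited counts gave -0.89 for Idi1 (edgeR, adjusted p = 0.0743), and the block changed no other call of the 7 genes there (0 of the 7 rose and 4 fell, of 5362 and 6697 genes in all). After background correction the block gave Hmgcs1 1.93, Idi1 1.26, Fdps 0.02, Sqle 1.46, Lss -3.63, Cyp51 1.25 and Msmo1 2.46 (4 of the 7 rose and 1 fell, of 1075 and 1192 genes in all), and Idi1 again lost its call. Same-numbered libraries did not deviate together. That does not exclude that a number marks a mouse, so the block is given as an alternative only. The fits with the block tested 24382 genes on the deposited counts and 6526 after correction. 

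Leaving out 1 library at a time gave, on the deposited counts, Hmgcs1 -0.95 to -0.46, Idi1 -1.29 to -0.78, Fdps -2.67 to -2.41, Sqle -1.26 to -0.97, Lss -2.66 to -2.44, Cyp51 -1.6 to -1.25 and Msmo1 -0.63 to 0.11 (0 of the 7 rose, 2 to 6 fell, and in all 1916 to 10674 genes rose and 6202 to 8858 fell). After background correction the ranges were Hmgcs1 1.76 to 2.17, Idi1 1.09 to 1.24, Fdps -0.24 to 0.2, Sqle 1.19 to 1.87, Lss -4.05 to -2.92, Cyp51 0.95 to 1.55 and Msmo1 2.04 to 2.75, with Idi1 and Lss below the minimum in 2 of the 6 fits (2 to 4 of the 7 rose, 0 to 1 fell, and in all 443 to 1427 genes rose and 336 to 1658 fell). There 2 of the 7 genes rose without miR-206 library 1 or 3 or control 2 or 3, 3 rose without miR-206 library 2 and 4 without control 1. The fits without 1 library tested 25524 to 27853 genes on the deposited counts and 5196 to 7094 after correction. Scaled on the sum of the 7 genes the ranges were Hmgcs1 0.31 to 0.7, Idi1 -0.05 to 0.33, Fdps -1.59 to -1.04, Sqle -0.1 to 0.25, Lss -1.58 to -1.15, Cyp51 -0.3 to -0.14 and Msmo1 0.74 to 1.13 (0 to 1 of the 7 rose, 0 to 2 fell, and in all 9647 to 15615 genes rose and 3031 to 5328 fell). Differences in share, miR-206 minus control in percentage points, were Hmgcs1 2.28 to 5.78, Idi1 -0.08 to 0.77, Fdps -17.87 to -13.72, Sqle -0.98 to 2.17, Lss -6.49 to -5.27, Cyp51 -3.37 to -1.48 and Msmo1 13.94 to 24.86. After background subtraction the difference was -0.36 for Idi1 and -8.93 for Lss. 

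Depth limits Idi1 and Lss most, since few of their miR-206 counts are left above the background. Receptor genes give an average background per kb, and whether it holds for each of the 7 genes was not tested. With 3 libraries a group, the transgene cannot be told apart from the differences in background and depth between the groups.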
